A study of Mus musculus with 2 samples.

Results

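The genes described here are 10 folding chaperones and folding enzymes of the endoplasmic reticulum: Hspa5, Hsp90b1, Calr, Canx, Pdia3, Pdia4, Pdia6, Dnajb11, Sdf2l1 and Hyou1. They are 10 of 18193 genes represented on the array by a probe set with a single gene symbol, and every probe set carrying only their symbol was taken, 22 of 45101 in all. Transcript levels were measured on Affymetrix expression arrays in the cerebral cortex of 4-week-old mice of 129/B6 strain, labelled male. The wild-type group is 1 array, hybridised with total RNA pooled from 3 mice. The second group is also 1 array from a pool of 3 mice labelled with the same sex, age and strain, and its title calls them knockouts (KO). The signals of Xist, given below, differed widely between the pools, so the shared sex is that of the labels only. The series design names the gene as Gnmt, glycine N-methyltransferase, which uses S-adenosylmethionine to methylate glycine. The genotype entry of that sample reads wild-type, so it is called the knockout-titled pool here, and the sources used here do not describe the Gnmt allele. The comparison asks how the levels of these transcripts differed between wild-type and Gnmt knockout cortex. With 1 array in each group no test is possible, and every value below describes these pools only.

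Proteins bound for the cell surface or for secretion fold inside the endoplasmic reticulum (ER). Hspa5 (BiP) binds unfolded chains in cycles of ATP hydrolysis that J-domain partners start and nucleotide exchange factors end, Hsp90b1 finishes the folding of selected clients, calreticulin and calnexin hold glycoproteins by their sugars, and the protein disulphide isomerases make and rearrange disulphide bonds. When unfolded proteins accumulate, the unfolded protein response raises transcription of most of these genes. In brain they serve the synthesis of receptors, channels, adhesion proteins and neuropeptides.

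Most of the chaperones had lower signals in the knockout-titled pool. By the brightest probe set of each gene, Pdia3, Hsp90b1 and Hspa5 were between 4.69-fold and 5.71-fold lower there, Calr was 2.74-fold lower and Pdia4 2.34-fold lower. Dnajb11, Pdia6 and Canx were close to 1.5-fold lower, and Hyou1 was 1.38-fold higher. Signals count as measured here from a floor of 64.2 units, which 9 of the 10 genes reached on both arrays. Of these 9, 7 were at least 1.5-fold lower, against 18.2% of all measured genes, 5 were at least 2-fold lower, against 6.75%, and 3 were at least 4-fold lower, against 0.711%. No member was 1.5-fold higher, against 12.5% of all genes. The genes were chosen by their shared role and with these signals and ratios known, so the counts describe them and support nothing further.

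The promoters of several members share a sequence, the ER stress response element. Most of the members are known to be raised by the unfolded protein response, so the presence of its element describes them and supports nothing further. It is a CCAAT box, bound by the factor NF-Y, followed after 9 bases by CCACG, bound by ATF6 in the unfolded protein response. Promoter windows from RefSeq (assembly GRCm38.p6), from 250 bases before to 50 bases after the annotated gene start, were given for 9 members. The search used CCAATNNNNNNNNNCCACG on both strands, which contains both of these sequences. A match was present in 5 of the 9 members, Hspa5, Hsp90b1, Calr, Pdia6 and Canx, and in 37 of 27025 genes with a window (0.137%). Dnajb11 held the related element II, ATTGGNCCACG, in which ATTGG is the CCAAT box read on the opposite strand and which 0.0444% of genes carried. A match says that these letters are present and not that a factor is bound. Only exact matches were counted, and sequences that differ from the element by a base were left out. The matches are shown 5′ to 3′ on the strand that reads CCAAT or, for Dnajb11, ATTGG first, with the element in capitals and 10 bases on either side, since they are the feature these promoters have in common.
Hspa5, chr2:34772025-34772043: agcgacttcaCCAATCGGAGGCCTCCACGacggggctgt
Hsp90b1, chr10:86705533-86705551: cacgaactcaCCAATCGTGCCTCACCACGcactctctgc
Hsp90b1, chr10:86705638-86705656: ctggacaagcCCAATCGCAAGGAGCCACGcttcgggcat
Calr, chr8:84847075-84847093: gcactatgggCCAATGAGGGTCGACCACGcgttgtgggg
Pdia6, chr12:17266491-17266509: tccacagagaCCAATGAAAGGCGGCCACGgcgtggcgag
Canx, chr11:50325800-50325818: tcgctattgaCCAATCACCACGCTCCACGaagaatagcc
Dnajb11, chr16:22857852-22857862: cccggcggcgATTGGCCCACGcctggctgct

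The 6 matches of the first element shared its fixed bases, as the search required, and differed in the 9 bases between them. In Hspa5 the match ended 47 bases before the gene start, nearest to it among the members. In Pdia6 it ended 80 bases, in Canx 127 and in Calr 144 bases before the start, the last on the opposite strand. Hsp90b1 held 2 matches, 1 on each strand, ending 89 and 194 bases before the start. The element II match of Dnajb11 lay after the annotated start. All 9 windows held at least 2 CCAAT boxes, as did 11.7% of all windows, and Hsp90b1 held the most, 6. The windows were rich in G and C, between 60.3% and 75.7%, against a median of 52.7% over all windows. The unfolded protein response element TGACGTGG was searched on both strands too, and was in the window of 0 of 9 members and of 0.714% of all genes.

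**Figure D1:**
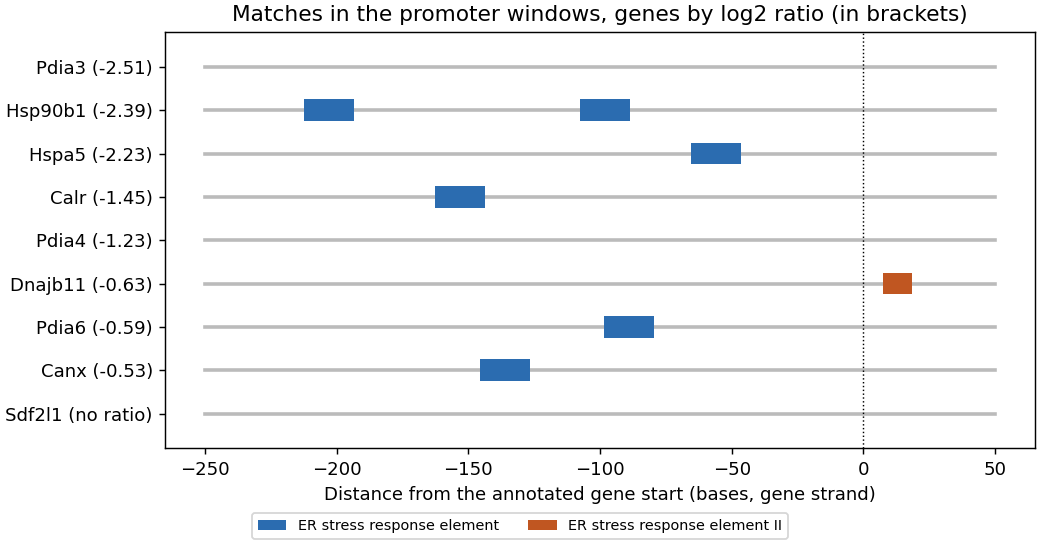
Positions of matches to the ER stress response element (blue) and element II (orange) in the promoter windows of 9 members. The x axis is the distance in bases from the annotated gene start, and members are ordered by their log2 ratio of knockout-titled over wild-type signal, given in brackets. The 5 genes with the first element include members with ratios from -2.39 to -0.53, and Pdia3, at -2.51, had no exact match.

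The whole windows of Hspa5 and Hsp90b1 are shown because these are the central chaperones, and that of Pdia3 because it had the lowest ratio without an exact match. Each is read on the strand of the gene, so a match on the opposite strand appears as CGTGG first and ATTGG last. Capitals mark the elements.
Hspa5, chr2:34771840-34772139, plus strand: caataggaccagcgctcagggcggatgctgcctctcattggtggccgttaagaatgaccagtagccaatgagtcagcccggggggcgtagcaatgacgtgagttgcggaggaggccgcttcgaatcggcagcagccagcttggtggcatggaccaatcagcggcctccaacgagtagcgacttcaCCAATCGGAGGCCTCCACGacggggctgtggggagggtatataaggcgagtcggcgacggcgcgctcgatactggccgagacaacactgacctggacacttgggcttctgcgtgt
Hsp90b1, chr10:86705395-86705694, minus strand: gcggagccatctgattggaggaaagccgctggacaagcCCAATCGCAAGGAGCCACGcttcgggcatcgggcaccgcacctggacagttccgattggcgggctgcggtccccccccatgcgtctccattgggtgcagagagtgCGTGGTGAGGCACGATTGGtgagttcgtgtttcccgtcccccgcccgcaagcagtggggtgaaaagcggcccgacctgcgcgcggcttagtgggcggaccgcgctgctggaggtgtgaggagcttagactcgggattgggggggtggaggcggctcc
Pdia3, chr2:121413652-121413951, plus strand: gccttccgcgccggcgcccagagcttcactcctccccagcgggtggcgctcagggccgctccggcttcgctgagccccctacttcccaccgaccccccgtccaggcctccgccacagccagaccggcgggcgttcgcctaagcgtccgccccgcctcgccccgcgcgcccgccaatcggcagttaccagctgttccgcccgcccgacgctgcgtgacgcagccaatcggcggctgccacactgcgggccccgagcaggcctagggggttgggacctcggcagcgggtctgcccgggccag

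Of the ATP-driven chaperones of the ER lumen, Hspa5 and Hsp90b1 were among the genes with the lowest ratios and Hyou1 was not. Hspa5 (NCBI gene 14828), the ER member of the HSP70 family, had 3 probe sets. Its brightest gave 9878 units on the wild-type array against 2123 on the knockout-titled array, a log2 ratio of knockout-titled over wild-type of -2.23. The second gave 3893 and 685.8 units and the dimmest 996.7 and 487.1 units, with log2 ratios of -2.52 and -1.04. All 3 were therefore lower in the knockout-titled pool, although the dimmest by only 2.06-fold. By signal, the brightest probe set of Hspa5 ranked 543rd of the array's non-control probe sets in the wild-type pool and 3530th in the other.

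Hsp90b1 (NCBI gene 22027), the HSP90 of the ER, also called Grp94, had 2 probe sets that gave nearly the same difference. The brighter gave 5230 units on the wild-type array against 1006 on the knockout-titled array, and the dimmer 1016.5 and 204.7 units. Their log2 ratios were -2.39 and -2.32, or 5.24-fold and 5.01-fold lower. Hyou1 (NCBI gene 12282), a large HSP70 relative that works as a nucleotide exchange factor for Hspa5, went the other way. Its brightest probe set gave 1080.0 units on the wild-type array against 1500.3 on the knockout-titled array, a log2 ratio of 0.46. Its second gave 73.0 and 191.6 units, 2.60-fold higher in the knockout-titled pool, with the wild-type signal just above the floor of 64.2 units. Its dimmest was below the floor on both arrays, at 21.0 and 34.1 units.

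The cochaperones of Hspa5 differed less or were too dim. Dnajb11 (NCBI gene 67838), a J-domain protein that delivers unfolded chains to Hspa5, had 1 probe set with 779.4 units on the wild-type array against 508.8 on the knockout-titled array. It was 1.54-fold lower, a log2 ratio of -0.63. Sdf2l1 (NCBI gene 64136), which forms a complex with Dnajb11, gave 79.1 units on the wild-type array against 61.1 on the knockout-titled array. The latter was below the floor, so only a bound can be given, at least 1.24-fold higher in the wild-type pool.

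Of the lectin chaperones, the soluble one differed more than the membrane-bound one. Calr (NCBI gene 12317), calreticulin, also the main calcium store protein of the ER lumen, had 3 bright probe sets. They gave 14501, 11455 and 9676 units on the wild-type array against 5338, 3653 and 3233 on the knockout-titled array. Their log2 ratios were -1.45, -1.66 and -1.59, so Calr was between 2.74-fold and 3.16-fold lower by every probe set. Canx (NCBI gene 12330), calnexin, its membrane-anchored counterpart, had 4876 and 3400 units by its brightest probe set, a log2 ratio of -0.53. Its other probe sets gave 504.7 and 521.0 units and 276.9 and 169.6 units, with log2 ratios of 0.03 and -0.72. The direction for Canx thus depended on the probe set, and no direction is given for it beyond these values.

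The disulphide isomerases spanned the range of the group. Pdia3 (NCBI gene 14827), also called ERp57, the isomerase that works with calreticulin and calnexin on glycoproteins, had 1216.2 units on the wild-type array against 214.9 on the knockout-titled array by its brighter probe set. This was the lowest log2 ratio among the members, -2.51, and the 23rd lowest of 12244 genes. Its other probe set gave 191.5 and 136.3 units and a log2 ratio of -0.50, so the 2 probe sets of Pdia3 were 2.01 apart on the log2 scale, the widest spread among the members. Pdia4 (NCBI gene 12304), ERp72, had 240.5 and 103.7 units, 2.34-fold lower in the knockout-titled pool, while its second probe set was below the floor on both arrays at 3.6 and 8.0 units. Pdia6 (NCBI gene 71853), an isomerase that binds Hspa5, had 1286.3 and 864.4 units and a log2 ratio of -0.59, at the 1.5-fold limit itself, and its second probe set was below the floor at 33.1 and 54.0 units.

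**Figure D2:**
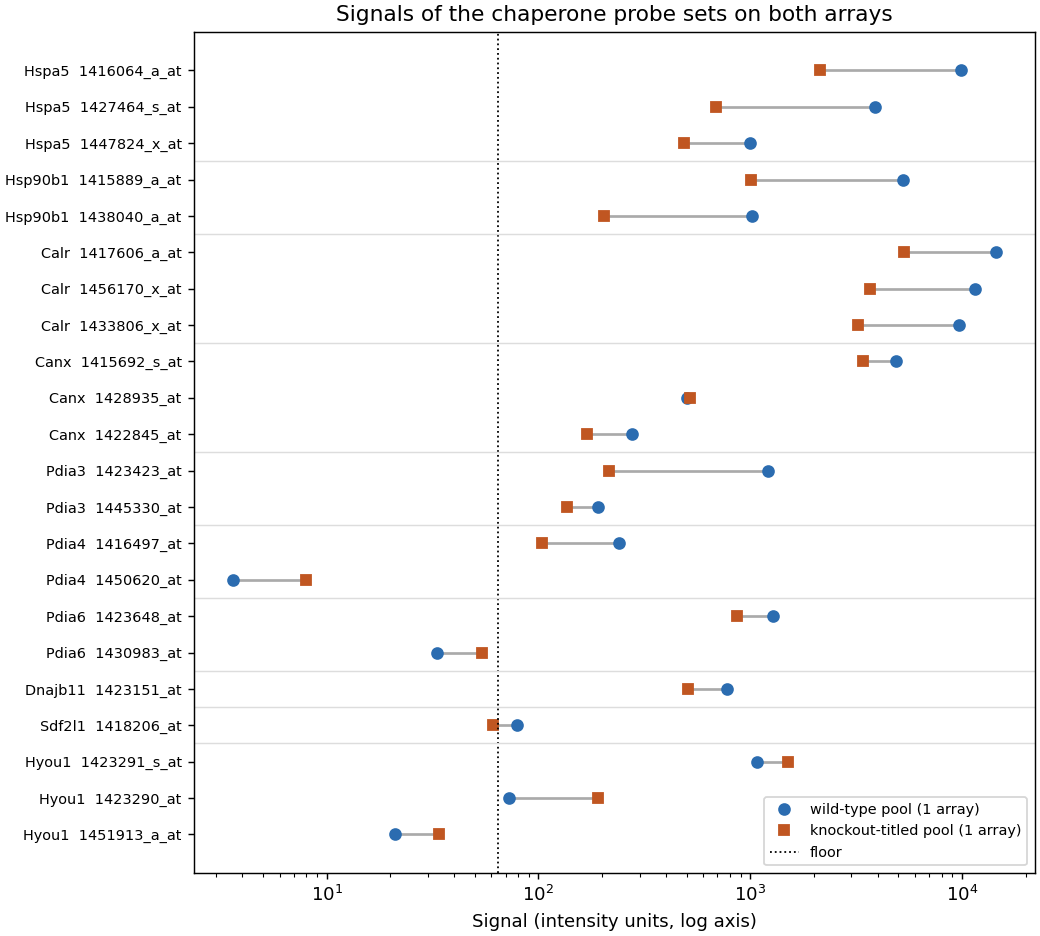
Signals of all 22 probe sets of the 10 genes in the wild-type pool (circles) and the knockout-titled pool (squares), in intensity units on a log axis, with a dotted line at the floor of 64.2 units. Each point is 1 array, so there are no error bars. The 8 probe sets of Hspa5, Hsp90b1 and Calr are all higher in the wild-type pool, the 3 of Hyou1 are higher in the knockout-titled pool, and 3 probe sets lie below the floor on both arrays.

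Probe sets of one gene gave the only measure of error in these data. Over 5375 genes with a second measured probe set, the error of a probe set had an SD of 0.58 on the log2 scale, or 1.49-fold, which leaves out the spread between mice and between pools. Against this SD, the brightest log2 ratios of Pdia3, Hsp90b1 and Hspa5 were 4.35, 4.14 and 3.86 times as large, and that of Calr 2.52 times. Those of Pdia4, Dnajb11, Pdia6, Canx and Hyou1 were 2.12, 1.09, 1.01, 0.92 and 0.80 times as large, so the differences of the last 4 were about as large as the probe set error or smaller. Of 18 member probe sets measured on both arrays, 13 passed 1.5-fold in the lower direction, against 18.1% of all measured probe sets with 1 symbol. Only 1, of Hyou1, was at least 1.5-fold higher, against 16.5%. All probe sets of Hspa5, Hsp90b1 and Calr carry an identifier suffix that marks probes able to bind several transcripts, and with suffixed probe sets left out, 4 of the 6 members still measured were 1.5-fold lower, 2 were 2-fold lower, 1 was 1.5-fold higher and the median log2 ratio was -0.61. Hspa5, Hsp90b1 and Calr had every probe set at least 2-fold lower, as did 106 of 5375 genes with 2 or more measured probe sets (1.97%).

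In the order of all 12244 genes from the lowest log2 ratio, Hsp90b1 was 30th, Hspa5 42nd, Calr 277th and Pdia4 481st. Dnajb11, Pdia6 and Canx were 2048th, 2233rd and 2519th, and Hyou1 was 10152nd. Neighbouring members such as Pdia3, Hsp90b1 and Hspa5, or Dnajb11, Pdia6 and Canx, lay closer together than the probe set error. The median log2 ratio was -1.23 over the 9 measured members and -0.06 over all genes, and the SD was 1.01 over the members and 0.64 over all genes. Hspa5, Hsp90b1, Calr and Canx were among the brightest 20% of genes by mean signal. Of the 2449 genes at that signal, 4.82% had a wild-type signal at least 2-fold above the knockout-titled one, among them Hspa5, Hsp90b1 and Calr.

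**Figure D3:**
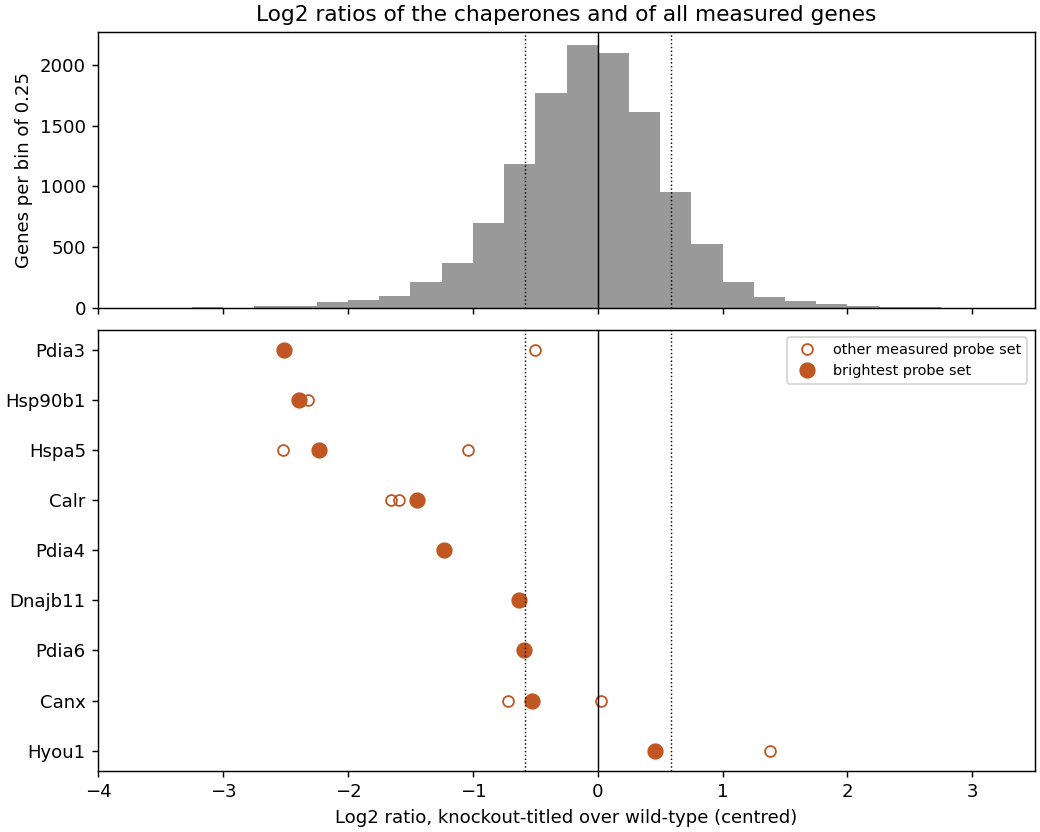
Upper panel: the number of genes in bins of 0.25 of the log2 ratio of knockout-titled over wild-type signal, over 12244 genes by their brightest probe set (a few genes lie beyond the axis). Lower panel: the same ratio for the 9 measured members, with the brightest probe set filled and the other measured probe sets open, and dotted lines at 1.5-fold. Pdia3, Hsp90b1 and Hspa5 have brightest probe sets below -2, and the second probe set of Pdia3 and the dimmest of Hspa5 lie nearer 0.

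The other ER genes, pooled over the lists, were close to the share of all genes, while the single lists varied. Among 153 measured genes of folding, glycosylation, translocation, degradation, ER exit and calcium handling, 31 (20.3%) passed 1.5-fold in the lower direction and 19 (12.4%) in the higher, around a median log2 ratio of -0.12. Over all measured genes the shares were 18.2% and 12.5%, and these stand beside the counts of every list below. Of the other disulphide isomerases and oxidases, 5 of 20 were lower, 2 were higher and the median was -0.21. Selenof, a selenoprotein of glycoprotein quality control, was lowest at 3.69-fold lower (5849 and 1600 units), and the membrane thioredoxin Tmx1 highest at 0.70, with another probe set at -0.66. Of the other J proteins, cochaperones and prolyl isomerases, 7 of 23 were lower, 2 were higher and the median was -0.29. Lrpap1, the chaperone of LDL receptor family proteins, was lowest at 3.36-fold lower (7234 and 2170 units), with its 4 probe sets between -1.84 and -0.82. The highest was Dnajc18, at 0.79, with its 3 probe sets between -0.27 and 1.17.

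Genes that act on nascent chains and sugars gave medians nearer 0. In the glycoprotein folding cycle 1 of 14 was lower, 2 were higher and the median was -0.10. The range was from -0.64 for the cargo receptor subunit Mcfd2 to 0.70 for Edem1, which directs misfolded glycoproteins to degradation. The other probe set of Edem1 gave -0.42. In the oligosaccharyl transferase, which attaches the sugars, 2 of 12 were lower, 1 was higher and the median was -0.17, from Magt1 at -0.65 to Tmem258 at 0.75. The other probe set of Magt1 gave 1.07. In the translocon and signal peptidase list 7 of 22 were lower, 3 were higher and the median was -0.13. The translocon subunit Sec62 was 2.88-fold lower (5961 and 2085 units), with 3 probe sets between -3.10 and -1.51, and Ssr3 was highest at 0.66. In ER-associated degradation 4 of 23 were lower, 2 were higher and the median was 0.16, from the lectin Erlec1 at -1.33 to Derl2 at 1.03, whose other probe set gave -1.02.

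The receptors that return escaped chaperones to the ER, with the coat proteins of ER exit, had 2 of 23 genes past the 1.5-fold limit in the lower direction and 5 in the higher, around a median of 0.00. Sar1b, the GTPase of the exit coat, was lowest at -0.64 and Preb, which activates it, highest at 1.34. ER calcium handling had 3 of 16 lower and 2 higher and a median of 0.05, from the calcium-binding Nucb2, 3.89-fold lower (502.8 and 130.4 units), to the calcium channel gene Ryr1 at 1.40. In both lists the number of lower genes was small beside the 7 of 9 chaperones, a difference that was not tested.

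Regulators of the unfolded protein response were spread about 0. Among 26 measured, 4 passed 1.5-fold in the lower direction and 3 in the higher, around a median of -0.11. Nfe2l2, a regulator of the oxidative stress response, was lowest at -1.14 and Ddit4, an inhibitor of mTOR signalling, highest at 1.49. Factors linked to the promoter element were picked out after their values had been seen. Atf6 had 1636 and 1474.5 units and a log2 ratio of -0.16, with its 3 probe sets between -0.20 and 0.03. Xbp1, the spliced transcription factor of the response, had 6634 and 4281 units and was 1.56-fold lower, with 4 probe sets between -1.37 and -0.64. The NF-Y subunit genes Nfya, Nfyb and Nfyc had log2 ratios of -1.12, 0.55 and 0.34.

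The heat shock proteins of the cytosol and mitochondria were also lower as a list. Of 39 measured, 18 were at least 1.5-fold lower and 2 higher, against 18.2% and 12.5% of all measured genes. The median log2 ratio was -0.55. Stip1, which links HSP70 to HSP90, was 4.19-fold lower (2101 and 505.9 units), and Dnajc5, the cysteine string protein of synaptic vesicles, highest at 1.30 with another of its 5 probe sets at -0.33. A lower signal in the knockout-titled pool was therefore seen in chaperone lists inside and outside the ER, and whether the lists differ was not tested.

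**Figure D4:**
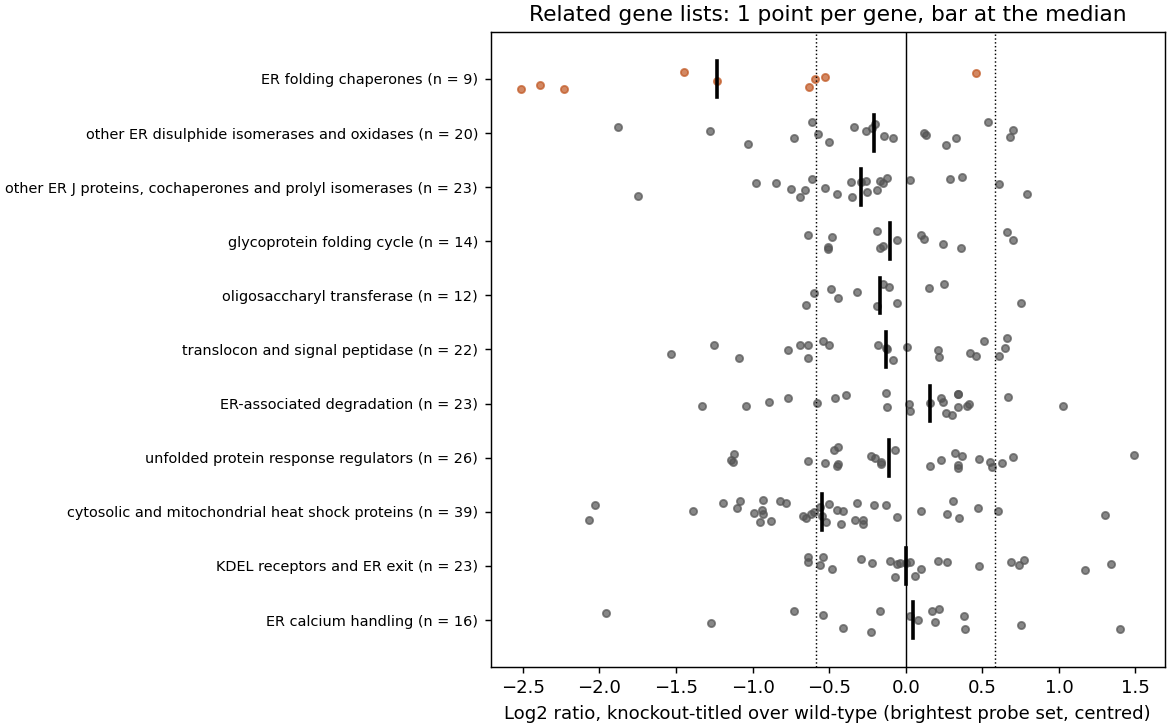
Log2 ratios of knockout-titled over wild-type signal by brightest probe set for the ER chaperones (orange) and 10 related gene lists (grey), 1 point per measured gene with vertical jitter, a bar at each median and dotted lines at 1.5-fold. The chaperone median is -1.23, that of cytosolic and mitochondrial heat shock proteins -0.55, and the other medians lie between -0.29 and 0.16.

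Outside the 10 genes, few genes with an ER stress response element were measured on both arrays. Of the 37 genes with a match 14 were measured, and 9 of these were not members. Their median log2 ratio was 0.15, with 1 at least 1.5-fold lower, Spats2l at -0.74, and 1 higher, Pan2 at 1.43. Each was 11.1% of the 9, against 18.2% of all measured genes in the lower direction and 12.5% in the higher. So few genes cannot set these shares apart. Named after their values had been seen, the other ER genes among them were Creld2 at -0.57, the mannosyltransferase gene Alg12 at -0.48, the J-domain protein gene Dnajc3 at -0.35, the ubiquitin ligase gene Syvn1 at 0.16, Derl3 at 0.30 and the oxidase gene Ero1b at 0.33. All of these 6 lay within 1.5-fold. Of the 7 measured genes with element II that were not members, 1 was at least 1.5-fold lower (14.3%, against 18.2% of all genes). There were 0 higher, and the median was -0.19. Also named after their values had been seen, Lrif1 was the lower one, with 559.9 and 130.3 units and a log2 ratio of -2.12, and Herpud1, a degradation factor, was at -0.58, with another probe set at 0.10.

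Markers of other cell types differed between the pools alongside the chaperones. The pituitary hormone genes Gh and Pomc had 23223 and 3126.5 units on the wild-type array against 200 and 394.3 on the knockout-titled array. Prl and Cga had 2351 and 2362 units in the wild-type pool and were below the floor in the knockout-titled pool, at 9.7 and 6.5 units. Of 16 pituitary markers on the array 7 were measured on both: Gh, Pomc, Chga, Chgb, Scg2, Tshb and Crhr1. At least 1.5-fold lower were 5 of the 7, and 0 were higher, against 18.2% and 12.5% of all measured genes. Tshb (-0.31) and Crhr1 (0.32) lay within 1.5-fold. The 7 signals summed to 50959 units (wild-type) and 8487 units (knockout-titled), with Prl and Cga left out. In that sum Chga, Chgb and Scg2 gave 2316, 12859 and 8790 units (wild-type) and 1087, 4139 and 1897 units (knockout-titled). Of the pituitary list, Fshb, Tbx19 and Pitx1, named after their values had been seen, were below the floor in both pools. Pituitary endocrine cells are secretory cells rich in ER, and the summed signal of the 9 measured chaperones was 39088 and 15059 units. Against 18.2% lower and 12.5% higher over all measured genes, 7 of 12 measured microglia markers were lower and 2 higher. Their median log2 ratio was -0.89. Their signals summed to 15191 and 13475 units, of which Csf1r, named after its values had been seen, gave 6390 and 7830 units. The part of these cells in the chaperone ratios was not tested, and fewer cells of a type and less RNA per cell cannot be told apart in pooled tissue.

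Markers of cortical neurons were present in both pools, 13 of 13 on the array above the floor, with a median log2 ratio of -0.01. Past 1.5-fold, 1 of the 13 was lower, Neurod6 at -1.61, and 1 was higher, Tbr1 at 1.06. Both were named after their values had been seen. At the 1.5-fold limit, 4 of 10 astrocyte markers were lower in the knockout-titled pool and 0 higher, as were 2 of 9 and 0 for oligodendrocytes, 1 of 8 and 0 for endothelium, and 0 of 8 and 1 for choroid plexus. The shares of all measured genes were 18.2% lower and 12.5% higher. Gnmt itself was below the floor in both pools, at 10 and 21.5 units, and could not check the labels. Xist, the RNA of the inactive X chromosome, had 49.6 and 2560 units although both pools are labelled male, and Eif2s3y, Uty and Kdm5d of the Y chromosome were above the floor in both, at log2 ratios of 0.16, -0.22 and -0.85. As a measure of RNA quality, the ratio of 3′ to 5′ control signal was 0.93 and 1.02 for Gapdh and 3.71 and 3.76 for Actb in the wild-type and knockout-titled pools. The Actb control itself was higher in the knockout-titled pool, with 3′ signals of 9207 (wild-type) and 25267 units and 5′ signals of 2482 and 6726 units. For Gapdh the 3′ signals were 24145 and 20734 units.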

How the data were processed

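Total RNA was extracted with Trizol and labelled as biotinylated cRNA, per the labels' protocols. The deposited values are linear intensities, 1 per probe set and array; the submitters' processing notes name GCOS, the Affymetrix array software. Not given in the sources used here are its version, how signals were computed and detection calls. As deposited, each array's mean, after trimming 2% of values at either end, was 500.0. Median signals were 92.0 units (wild-type) and 124.9 units (knockout-titled). The floor, 64.2 units, was the 40th percentile of 45037 non-control signals per array, both arrays together, and 23928 probe sets reached it on both. Log2 ratios were centred by their median over these, 0.01. Of the non-control probe sets 34945 had 1 symbol in the platform annotation, 932 several and 9160 none; 34741 of the first matched RefSeq genes (GRCm38.p6) and took its current symbol. The brightest probe set by mean log2 signal stood for a gene, and was measured for 12244. Promoter windows came from RefSeq; 9 of 10 members had one, all but Hyou1.

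The members and gene lists were chosen with earlier results of these data known. Genes named are all members, Gnmt, the lowest and highest of each related list, 4 pituitary hormones, the other measured pituitary markers and sex-linked genes. Others are marked as chosen after their values were seen. Of 238 listed related genes, 9 had no probe set with a single symbol. The number of arrays limits the precision, and no p-value was calculated. The calculations were tested on simulated data. Alternatives covered the floor, the scaling, the probe set standing for a gene and suffixed probe sets. The software was matplotlib 3.10.9, statsmodels 0.14.6, pandas 2.3.3 and numpy 2.4.6 under Python 3.11.15.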

Additional observations from a re-analysis of the deposited data

How the results depend on the processing

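The main counts were 7 of 9 chaperones past 1.5-fold and 5 past 2-fold in the lower direction, and 0 past 1.5-fold in the higher. At least 1 of them differed under 8 of the 9 alternatives, all but the floor at the 25th percentile. Pdia6, Dnajb11 and Canx lie near the 1.5-fold limit: with no floor 8 of 10 members were lower (27.2% of all genes). Without centring 6 of 9 were lower (17.8%), with quantile normalization 6 of 9 (22.8%), and with loess 5 of 9 (17.4%). With the floor at the 60th percentile 4 of 8 were 1.5-fold lower (15.2% of all genes), since Pdia4 was no longer measured and Pdia6 and Dnajb11, which lie at the limit, fell inside it. By second brightest probe sets, which 6 members had, 3 were 1.5-fold lower (19.1% of all genes), 3 were 2-fold lower (7.83%) and 1 was 1.5-fold higher (19.4%). Without probe sets whose identifier carries a suffix (a, s or x, for probes that can bind several transcripts), 6 members remained measured: 4 were 1.5-fold lower (18.1% of all genes), 2 were 2-fold lower (6.83%) and 1 was higher (13.1%), and the median log2 ratio moved from -1.23 to -0.61. This setting removed Hspa5, Hsp90b1 and Calr, whose probe sets all carry a suffix, so their values could not be checked with unsuffixed ones. By the median of each gene's probe sets 1 member, Hyou1, was 1.5-fold higher, as were 12.6% of all genes. Of the 218 related genes 53 (24.3%) were 1.5-fold lower, against 18.2% of all genes. By second brightest probe sets 35 of 115 were lower, against 19.1%.

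Over the settings that gave a value, the log2 ratio ranged from -2.52 to -2.11 for Hspa5, from -2.49 to -2.31 for Hsp90b1, from -1.66 to -1.30 for Calr and from -2.64 to -0.50 for Pdia3. Canx ranged from -0.64 to 0.03 and Hyou1 from 0.36 to 1.38. Signals near the floor limit Sdf2l1 and the dimmer probe sets of Hyou1, Pdia4 and Pdia6.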

Other observations

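By brightest probe set, several genes of cytosolic HSP70 and HSP90 and of their partners had ratios as low as those of some ER chaperones. The genes in this paragraph were picked out after their values had been seen. Hspa8, the constitutive HSP70 of the cytosol, had 37541 units on the wild-type array against 17713 on the knockout-titled array, 2.14-fold lower, with its 4 probe sets between -1.26 and 2.05. Hsp90aa1 had 22082 and 9741 units, 2.29-fold lower, with its 3 probe sets between -2.54 and -1.19. Hsph1, the nucleotide exchange factor of cytosolic HSP70, had 8676 and 3336.5 units and was 2.62-fold lower, whereas Hyou1, its relative in the ER, was 1.38-fold higher. Bag1, another exchange factor, had 3468 and 858.4 units and was 4.07-fold lower by its single probe set. The stress-inducible genes Hspa1a, Hspa1b and Dnajb1 had log2 ratios of 0.35, 0.10 and 0.47, the last with another probe set at -0.59.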
